A study of Mus musculus with 11 samples.

Results

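The 5 enzyme complexes of oxidative phosphorylation were followed at the mRNA level in whole ovaries of ageing mice. Members were taken by name: protein-coding genes whose symbols match the subunit series of complexes I to V, which gave 97 of the 54232 genes in the table. Of these, 84 are encoded in the nucleus and 13 in mitochondrial DNA. Complex I has 42 of them, complex II 4, complex III 9, complex IV 23 and complex V 19, where Ndufa4 and Ndufa4l2 were counted with complex IV. The rule uses symbols and gene type only. The filter on low counts kept 87 members for testing, 80 nuclear and 7 mitochondrial.

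All mice were wild type (WT), and each sample was RNA of the whole ovary, a mixture of follicles, corpora lutea, stroma, vessels and immune cells. The groups were ovaries of 2 months (4 samples), 18 months (3 samples from 4 libraries) and 24 months (3 samples). The series describes them as reproductively young, reproductively old and post-reproductive. Library names of the oldest group carry 22 months, and those of the youngest carry 8 weeks. Strain, the number of animals behind a sample and whether the libraries came from separate animals are not stated in the labels, so p-values measure the spread between these samples, which may be technical. Polyadenylated RNA was sequenced with a stranded kit.

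Library totals ran from 5231724 to 33407509 counts. The shallowest libraries, 18 month replicates 3 and 4, agreed within about the sampling noise of counts (chi-square per gene of 1.10, while the closest other pair within an age gave 28.7), so they were summed and counted as 1 sample. Values are in CPM, edgeR's counts relative to the TMM-scaled library size. Differences were tested with edgeR's quasi-likelihood test over all 20331 genes that passed the filter, with Benjamini-Hochberg adjustment and a threshold of 0.05. Oocyte and granulosa markers were present at every age. The summed level of 15 oocyte markers lay between 347 and 776 CPM at 2 months, between 68.3 and 124 CPM at 18 months, and between 35.4 and 111 CPM at 24 months. In such tissue samples, fewer cells of a type and less RNA per cell cannot be told apart.

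Oxidative phosphorylation makes most of a cell's ATP. Complex I (NADH dehydrogenase) and complex II (succinate dehydrogenase) pass electrons to ubiquinone, complex III (cytochrome bc1) passes them to cytochrome c, and complex IV (cytochrome c oxidase) to oxygen, while complex V (ATP synthase) uses the proton gradient that complexes I, III and IV build. Some core subunits of complexes I, III and IV and part of the membrane sector of complex V are encoded in mitochondrial DNA. Complex II is wholly nuclear, and all other subunits are made in the cytosol and imported. In the ovary, oocytes store very many mitochondria, and steroid-producing luteal and theca cells use the mitochondrial inner membrane for the first step of steroid synthesis.

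The nuclear genes are scattered over the chromosomes, but short elements recur in their promoters. Sequences from 250 bases before to 50 bases after the start (RefSeq, build GRCm38.p6, the assembly behind mm10) were found for 68 of the 83 nuclear symbols. The NRF1 core GCATGCGC, searched on both strands, occurred in 10 of these 68 genes (14.7%), against 3.02% of the 26957 other genes in the table (2.71% of all promoters, since some genes have several). CCGGAAG, an ETS-type motif bound by GABPA, occurred in 23.5% of members against 9.89% of other genes, AAGATGG (YY1) in 16.2% against 7.26%, and TCAAGGTCA (ERRA) in 2.9% against 0.46%. The palindrome CGCATGCG, which overlaps the NRF1 core, occurred in 13.2% against 2.04%. The other genes were not limited to expressed genes or matched for base content. Whether these excesses are particular to the subunits was therefore not tested. The 10 genes with the NRF1 core come from all 5 complexes. A stretch around 1 match in each is shown with its flanks. The 8 letters recur because they were searched for, and the likeness of the flanks was not tested. In Ndufa11, Uqcrc1, Cox6a1, Atp5g2 and Atp5k another match on the other strand overlaps the one shown. Capitals mark the core, and each stretch is written 5′ to 3′ on the strand that reads it.
Ndufa6: ccgcggtagaGCATGCGCattgcagagc
Ndufa8: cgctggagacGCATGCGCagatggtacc
Ndufa11: aggcgtgcgcGCATGCGCgcagtgcagg
Sdhb: agcccagtggGCATGCGCcctacgggcc
Uqcr11: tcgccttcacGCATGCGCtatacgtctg
Uqcrc1: gccgcgctgcGCATGCGCagagcggagt
Cox6a1: ggaacggggcGCATGCGCgctctcgctc
Atp5g2: ctccggccgcGCATGCGCagagccttcc
Atp5k: tcactgcggcGCATGCGCctttctggct
Atp5l: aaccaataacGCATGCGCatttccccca

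These stretches lie, in GRCm38.p6, for Ndufa6 at chr15:82354357-82354384 (reverse strand shown), Ndufa8 at chr2:36049329-36049356 (reverse strand shown), Ndufa11 at chr17:56717692-56717719 (reverse strand shown), Sdhb at chr4:140961207-140961234 (forward strand shown), Uqcr11 at chr10:80406808-80406835 (reverse strand shown), Uqcrc1 at chr9:108936668-108936695 (reverse strand shown), Cox6a1 at chr5:115349101-115349128 (reverse strand shown), Atp5g2 at chr15:102671070-102671097 (reverse strand shown), Atp5k at chr5:108434430-108434457 (reverse strand shown) and Atp5l at chr9:44920965-44920992 (reverse strand shown). The Uqcrc1 match lies after the RefSeq start, the Uqcr11 match spans it and the others lie before it. A match is a run of letters and was not shown to be bound in these ovaries. At 24 months against 2 months the median log2 fold change was -0.57 over 10 tested members with the core and -0.56 over 56 tested members without it. For the overlapping palindrome it was -0.42 over 9 with it and -0.57 over 57 without it, for ETS -0.55 and -0.56, for YY1 -0.63 and -0.55, and for ERRA -0.26 over only 2 members with it and -0.57 over 64 without it. None of these differences was tested.

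At 24 months most nuclear subunit mRNAs were lower than at 2 months. The median log2 fold change of the 80 tested nuclear members was -0.55, or -31.7% on the linear scale, while that of all 20331 tested genes was 0.03. Of the 87 tested members, 62 fell and 2 rose, and every one of these 64 is nuclear. Over all tested genes 15.8% were called lower and 19.2% higher in this comparison, so the 71.3% of members called lower is well above the share of all genes. Short genes were called lower more often. Of other expressed protein-coding genes with 501 to 1000 bases of exon, 47.6% were lower, beside 17 of 19 nuclear members of that length. Samples of the 2 ages did not overlap, with the 24 month samples lower, for 67 of 80 nuclear members, against 20.4% of all tested genes. The count of 62 was 36 without 24 month replicate 2 and also 36 without 24 month replicate 3, all of them among the 62. The share of all genes called lower was then 8.82% and 8.69%, and the median log2 fold change of the nuclear members was -0.55 and -0.46. Of the 64 called members, 33 kept their call in each of 10 fits that left out 1 sample, and all 64 kept their direction.

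**Figure D1:**
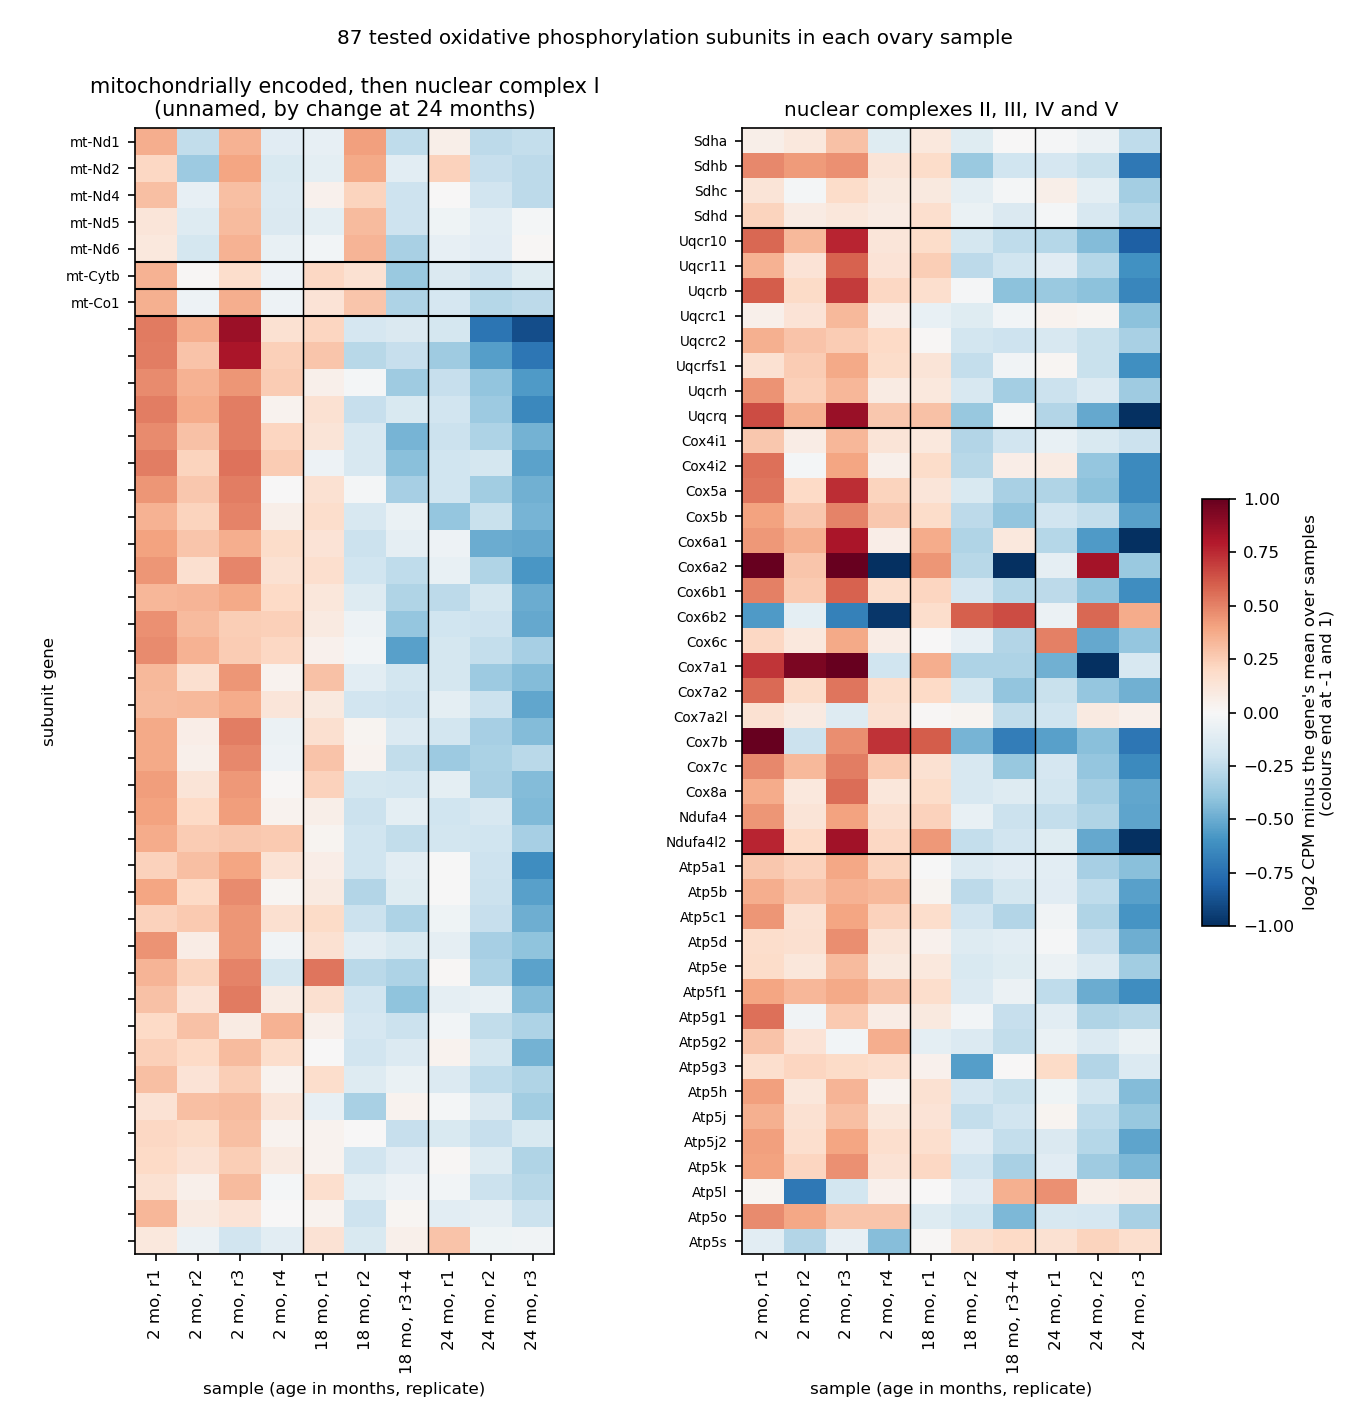
Each row is a tested subunit gene and each column an ovary sample, ordered by age; the colour is the log2 CPM in that sample minus the gene's mean over all samples, and black lines separate complexes and ages. The nuclear complex I rows carry no names and run from the lowest log2 fold change at 24 months against 2 months at the top to the highest at the bottom. Most nuclear rows are red at 2 months and blue at 24 months, with 24 month replicate 3 lowest in 64 of 80 nuclear rows, while Cox6b2 runs the other way.

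Individual samples were uneven. Among the 10 samples, 24 month replicate 3 was the lowest for 64 of the 80 nuclear members, and 2 month replicate 3 was the highest for 44 and 2 month replicate 1 for 26. Expressed as the median deviation from each gene's mean log2 CPM, the nuclear members stood at 0.38, 0.20, 0.39 and 0.13 in the 2 month samples, at 0.15, -0.17 and -0.20 in the 18 month samples, and at -0.11, -0.25 and -0.46 in the 24 month samples. All 24 month samples thus lay below all 2 month samples, and 18 month replicate 1 lay between the lowest pair of the 2 month samples.

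Complex I is the largest complex, and its nuclear subunits fell almost throughout: 30 of 35 were lower at 24 months, with a median log2 fold change of -0.54. The 7 nuclear core subunits, which carry the flavin and iron-sulphur centres that pass electrons, had a median of -0.42 with 6 of 7 lower, and the 28 accessory subunits a median of -0.55 with 24 lower. Ndufa12, an accessory subunit of the matrix arm (ENSMUSG00000020022, chr10:94198720-94221443, forward strand), had the smallest adjusted p of the complex. It was at 64.8, 59.4, 63.6 and 55.8 CPM at 2 months, 48.2, 46.0 and 36.5 CPM at 18 months, and 39.8, 35.6 and 31.5 CPM at 24 months. Every older sample was below every 2 month sample, and the edgeR test gave a log2 fold change of -0.78 ± 0.12 SE, adjusted p = 0.00326 at 24 months. Of the 50-base words of Ndufa12, 26.2% also occur in the pseudogene Gm15920, which had 9836 counts beside 13978 for Ndufa12. How reads from the shared part were counted was not tested. Ndufb5, an accessory subunit of the membrane arm (ENSMUSG00000027673, chr3:32736990-32751566, forward strand), was tighter within ages, with 49.4, 48.9 and 44.6 CPM at 24 months, against 72.6, 66.8, 67.6 and 67.4 CPM at 2 months (log2 fold change of -0.53 ± 0.09 SE, adjusted p = 0.00441 by edgeR). The groups were far apart compared with their spread.

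The largest falls in complex I were in small accessory subunits. Ndufc1 of the membrane arm averaged 31.5 ± 8.64 CPM at 24 months and 65.7 ± 13.9 CPM at 2 months (SD, n = 3 and 4), for a log2 difference of -1.06, and Ndufs5 of the intermembrane space side averaged 14.7 ± 1.87 and 29.8 ± 5.68 CPM, a log2 fold change of -1.02. Ndufb11, the most abundant nuclear member of the complex per kilobase, was at 89.9, 81.2 and 75.6 CPM at 24 months, against 132, 107, 145 and 97.8 CPM at 2 months, with no overlap and a log2 fold change of -0.55. The members that did not pass were Ndufa1, Ndufb2, Ndufb4, Ndufb9 and Ndufs7. Of these, Ndufb2 was the only one with a positive value, at 0.14 (adjusted p = 0.509 by edgeR).

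Complex II, the succinate dehydrogenase shared with the citrate cycle, changed least among the nuclear groups, with a median log2 fold change of -0.25 over its 4 members. Sdhb, the iron-sulphur subunit (ENSMUSG00000009863, chr4:140961203-140979193, forward strand), was the only member called. It stood at 110.5, 106 and 75.6 CPM in 24 month ovaries, against 173, 166, 170.4 and 136 CPM in 2 month ovaries (log2 fold change of -0.73 ± 0.17 SE, adjusted p = 0.0128 by edgeR), with no overlap. Sdha, the flavoprotein that oxidises succinate, was at 387, 375 and 327 CPM in 24 month ovaries, against 406, 421, 479 and 359 CPM in 2 month ovaries. These Sdha values overlapped and did not pass the test (adjusted p = 0.245 by edgeR). Sdhc, a membrane anchor, was at 87.7, 78.7 and 66.7 CPM at 24 months, against 91.99, 83.0, 95.8 and 90.2 CPM at 2 months, and overlapped in the same way. Its partner Sdhd was at 88.4, 80.4 and 73.7 CPM at 24 months, against 104, 95.1, 97.4 and 95.2 CPM at 2 months; these did not overlap, but the adjusted p of 0.0581 missed the threshold. The difference between complex II and the other complexes was not tested.

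In complex III, 7 of 8 nuclear members fell, with a median log2 fold change of -0.57. Uqcrc2, a core protein of the matrix side (ENSMUSG00000030884, chr7:120635176-120659524, forward strand), was at 171, 163, 159 and 154 CPM at 2 months, 135, 118 and 116 CPM at 18 months, and 119.5, 115 and 106 CPM at 24 months. Both older groups lay wholly below the 2 month samples, and the edgeR test gave a log2 fold change of -0.51 ± 0.09 SE, adjusted p = 0.00458 at 24 months. Uqcr10, a small membrane subunit and the most abundant nuclear member of the complex per kilobase, was at 57.6, 52.2 and 40.0 CPM at 24 months, against 105, 88.3, 119.6 and 76.6 CPM at 2 months, for a log2 difference of -0.96. Uqcrq, a small ubiquinone-binding subunit, fell most, by 1.18 on the log2 scale, with 88.0, 75.9 and 46.2 CPM at 24 months, against 169.5, 138, 196 and 130.2 CPM at 2 months. Uqcrfs1, the Rieske iron-sulphur protein, had a log2 fold change of -0.49. Uqcrc1, the other core protein, did not pass, at -0.26 (adjusted p = 0.135 by edgeR), although its samples did not overlap.

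**Figure D2:**
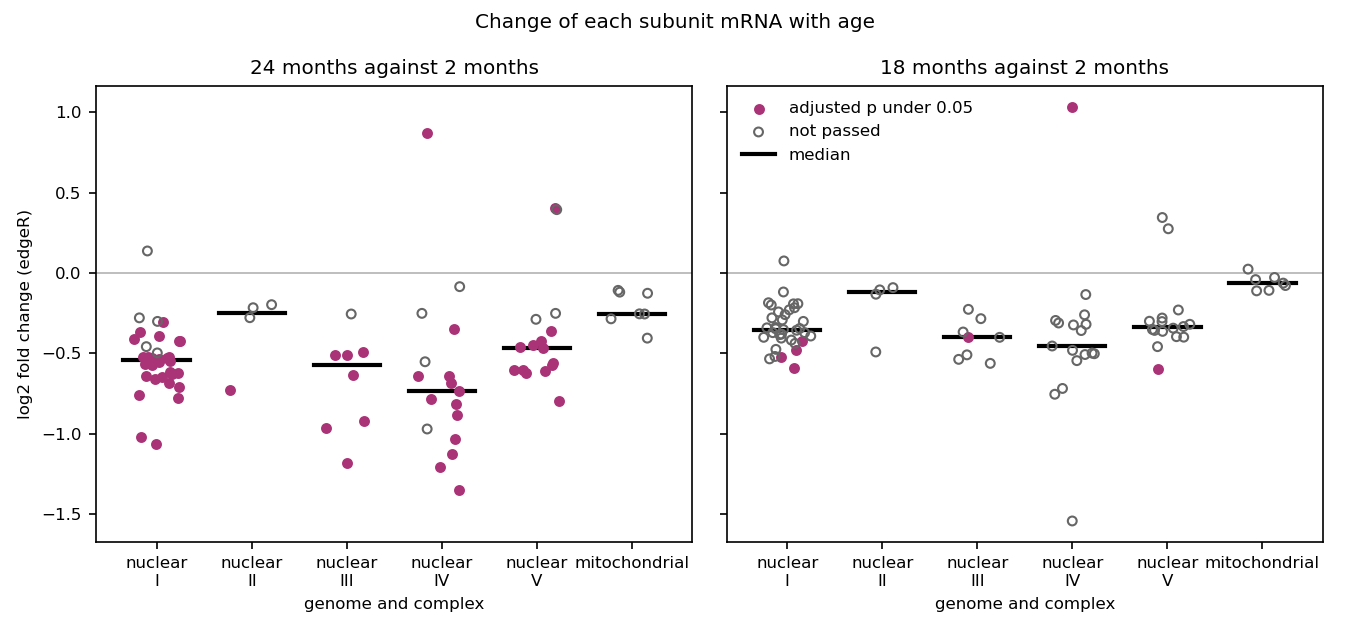
Each point is a tested subunit, placed by complex (nuclear members) or by genome (mitochondrial members) and by its edgeR log2 fold change; filled points passed an adjusted p of 0.05 and black lines are medians. The left panel shows 62 lower and 2 higher members at 24 months against 2 months, with medians from -0.74 (complex IV) to -0.25 (complex II and the mitochondrial group); the right panel shows 6 lower and 1 higher member at 18 months.

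Complex IV had the lowest median, -0.74 over 17 tested nuclear members, of which 12 fell and 1 rose. It is also the complex whose nuclear subunits come in tissue-specific versions. The most abundant nuclear member per kilobase, Cox6a1 (ENSMUSG00000041697, chr5:115345642-115348981, reverse strand), the version found in most tissues, was at 179.9, 148 and 109 CPM at 24 months, against 296, 281, 387 and 230.2 CPM at 2 months, a change of -51.2% by the fit. Cox5a, a matrix-side subunit, was at 33.2, 30.9 and 26.4 CPM at 24 months, against 59.3, 47.0, 68.5 and 47.9 CPM at 2 months (log2 fold change of -0.89 ± 0.17 SE, adjusted p = 0.00549 by edgeR). Neither overlapped between these ages. Cox4i1, Cox7a2 and Cox8a, the common versions of 3 other subunits, had log2 fold changes of -0.35, -0.74 and -0.64, and all 3 were called lower. Ndufa4 was at 95.5, 91.9 and 78.2 CPM at 24 months, against 153, 124, 149 and 126 CPM at 2 months, for a log2 difference of -0.64.

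Some complex IV members were uneven among samples of 1 age. Cox7b had 77.1, 83.9 and 67.7 CPM at 24 months, against 268, 96.7, 155 and 185 CPM at 2 months, so that its 2 month samples differed among themselves by more than the difference between the group means, although the groups did not overlap (log2 fold change -1.21, adjusted p = 0.0344 by edgeR). Cox6c did not pass, and 24 month replicate 1 was its highest sample of all, at 179.9 CPM. Cox7a2l, a subunit-like protein that links complexes III and IV, was level, at 53.4, 65.2 and 63.5 CPM at 24 months, against 67.9, 65.3, 56.1 and 68.2 CPM at 2 months. Its log2 fold change of -0.09 (adjusted p = 0.585 by edgeR) turned to 0.10 when samples were scaled by library totals alone.

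Cox6b2 (ENSMUSG00000051811, chr7:4751792-4753094, reverse strand) was the exception in complex IV. In mammals it is known as the testis version of subunit VIb, whose common version is Cox6b1. Cox6b2 stood at 8.40, 11.6, 7.79 and 6.33 CPM at 2 months, 14.1, 18.9 and 19.6 CPM at 18 months, and 12.01, 18.6 and 16.1 CPM at 24 months. The older groups lay above all 2 month samples, and the edgeR test gave a log2 fold change of 0.87 ± 0.23 SE, adjusted p = 0.0191 at 24 months. Cox6b1 went the other way, with 120.5, 109 and 93.8 CPM at 24 months, against 205, 173, 217 and 163 CPM at 2 months (log2 fold change of -0.81 ± 0.16 SE, adjusted p = 0.00621 by edgeR). Per kilobase of exon, Cox6b2 made up 2.83 ± 0.87% of the 2 versions together at 2 months, 7.74 ± 2.36% at 18 months and 8.57 ± 2.24% at 24 months (SD, n = 4, 3 and 3). Neither older group overlapped the 2 month samples, and Cox6b1 stayed the main version throughout. The call for Cox6b2 at 24 months was lost without 2 month replicate 1, without 24 month replicate 2 or without 24 month replicate 3, with adjusted p between 0.0521 and 0.0737 by edgeR.

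Other tissue-specific versions did not follow Cox6b2. The muscle version Cox7a1 was called lower at 24 months, with 4.29, 1.91 and 5.37 CPM, against 9.88, 11.6, 12.6 and 5.23 CPM at 2 months, which overlapped by 1 sample. Its share beside Cox7a2 was 10.1 ± 4.62% at 24 months and 14.5 ± 4.07% at 2 months (SD, n = 3 and 4), a difference within the spread. Cox4i2, the version known from lung and raised by low oxygen in cultured cells, averaged 3.21 ± 0.843 CPM at 24 months and 4.70 ± 0.906 CPM at 2 months and did not pass. Ndufa4l2, the hypoxia-inducible relative of Ndufa4, fell, with 6.19, 4.72 and 2.58 CPM at 24 months, against 11.5, 7.76, 12.1 and 7.82 CPM at 2 months (log2 fold change of -1.12 ± 0.33 SE, adjusted p = 0.0269 by edgeR). Cox6a2, a muscle version, was at most 1.48 CPM in any sample, and Cox8b, Cox8c and Cox7b2, known from muscle or testis, were too low to test.

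In complex V, 12 of 16 nuclear members fell and 1 rose, with a median log2 fold change of -0.46. All 5 subunits of the F1 head, which makes ATP, were lower, with a median of -0.56. The catalytic subunit Atp5b (ENSMUSG00000025393, chr10:128083273-128090391, forward strand), the nuclear member with the most CPM, was at 865, 784 and 642 CPM at 24 months, against 1203, 1135, 1185 and 1168 CPM at 2 months, and Atp5a1, the other large head subunit and the most abundant per kilobase, was at 701, 599 and 563 CPM at 24 months, against 911, 885, 988 and 880.2 CPM at 2 months. Their log2 fold changes were -0.62 and -0.56, with no overlap. Atp5f1, subunit b of the peripheral stalk that holds the head in place (ENSMUSG00000000563, chr3:105942698-105960099, reverse strand), had the smallest adjusted p of all members. It stood at 268, 256, 264 and 249.8 CPM at 2 months, 230.2, 185 and 195 CPM at 18 months, and 171, 145 and 132 CPM at 24 months (log2 fold change of -0.80 ± 0.12 SE, adjusted p = 0.00268 at 24 months by edgeR). All 3 ages were apart, with every 24 month sample below every 18 month sample.

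The rotor ring of complex V is built from subunit c, whose identical mature protein comes from 3 genes. Atp5g3, the most abundant of them, was at 372, 266 and 297 CPM at 24 months, against 366, 378, 373 and 365 CPM at 2 months, and did not pass (log2 fold change -0.25, adjusted p = 0.252 by edgeR). Atp5g2 was at 25.4, 24.2 and 25.5 CPM at 24 months, against 32.5, 29.3, 26.2 and 34.2 CPM at 2 months, and did not pass either. Atp5g1 was called lower, at -0.46. The share of Atp5g1 beside Atp5g3 per kilobase, 5.07 ± 0.48% at 24 months and 5.75 ± 1.04% at 2 months (SD, n = 3 and 4), differed by less than the spread.

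Atp5s was the only complex V symbol that rose, with 15.8, 16.6 and 16.01 CPM at 24 months, against 13.2, 11.6, 13.5 and 10.6 CPM at 2 months (log2 fold change of 0.40 ± 0.12 SE, adjusted p = 0.0331 by edgeR). The call was lost without 2 month replicate 1, 2 or 4 and without each of the 24 month replicates, with a log2 fold change between 0.35 and 0.43. The gene has since been renamed Dmac2l, and it is not among the subunits of the ATP synthase structure. Atp5l, subunit g, was at 8.84, 6.68 and 6.80 CPM at 24 months, against 6.51, 3.88, 5.64 and 6.60 CPM at 2 months, and did not pass. Its count is uncertain, since 84.8% of its 50-base words also occur in transcripts of other genes. The same measure was 50.3% for Atp5o, 47.9% for Atp5h, 43.4% for Uqcrb, 39.7% for Ndufs3, 38.7% for Atp5f1 and 37.0% for Ndufb4. A second identifier of Atp5o had no counts.

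The members named above differed in how far their calls rested on single samples. Atp5f1, Atp5b and Atp5a1 of complex V, Cox6a1, Cox5a, Cox6b1 and Ndufa4 of complex IV, Uqcrc2, Uqcr10 and Uqcrq of complex III, Sdhb, and Ndufa12, Ndufb5, Ndufc1 and Ndufs5 of complex I kept their calls whichever sample was left out. Ndufb11 lost its call without 24 month replicate 2 or 3, with adjusted p between 0.0599 and 0.0634 by edgeR. Cox4i1 lost its call in 7 of the 10 fits, Cox7b in 5, and Cox7a1, Ndufa4l2, Atp5g1 and Uqcrfs1 in 4 each, with log2 fold changes that stayed below 0.

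At 18 months the nuclear members already stood lower, with a median log2 fold change of -0.35 against 2 months, but few single genes passed the test. Of the 87 tested members 6 fell, in a comparison where 5.51% of all tested genes were called lower, and 1 rose, where 6.04% were called higher. The share of members called lower, 6.9%, is near that of all genes. The 6 were Ndufa8, Ndufa12, Ndufb5 and Ndufs6 of complex I, Uqcrc2 of complex III and Atp5o of complex V. Atp5o, the stalk subunit named for oligomycin sensitivity, was at 20.96, 20.2 and 16.8 CPM at 18 months, against 31.7, 29.96, 27.7 and 27.7 CPM at 2 months (log2 fold change of -0.60 ± 0.12 SE, adjusted p = 0.0165 by edgeR), and Ndufa8, a subunit facing the intermembrane space, was at 61.0, 56.8 and 47.5 CPM at 18 months, against 90.2, 74.0, 92.3 and 75.5 CPM at 2 months (log2 fold change of -0.59 ± 0.14 SE, adjusted p = 0.0264). Neither overlapped. Cox6b2 was the member that rose (log2 fold change of 1.03 ± 0.23 SE, adjusted p = 0.025).

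This count was not stable. It was 0 without 2 month replicate 1 or without the summed 18 month sample, 1 without 18 month replicate 2, 2 without 2 month replicate 2 or 4, 13 without 24 month replicate 3 and 17 without 18 month replicate 1. The share of all genes called lower moved too. It was 0.802% without 2 month replicate 1, 0.509% without the summed sample, 0.95% without 18 month replicate 2, 1.24% and 1.37% without 2 month replicate 2 or 4, 6.09% without 24 month replicate 3 and 3.84% without 18 month replicate 1. Without adjustment 47 of 80 nuclear members were lower at p under 0.05, against 2885 of all 20331 tested genes, and DESeq2 called 24 of 87 lower where it called 9.54% of all genes lower. The samples of the 2 ages did not overlap, with the 18 month samples lower, for 30 nuclear members of 80, against 13.7% of all tested genes. Each of the 7 calls was lost in at least 2 of the 10 fits that left out 1 sample. The Cox6b2 call was lost without 2 month replicate 1 or 4, without 18 month replicate 2 or without the summed 18 month sample, with adjusted p between 0.068 and 0.0882 by edgeR.

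Between 24 and 18 months the nuclear members had a median log2 fold change of -0.19 and the mitochondrial members -0.18. None of the 87 passed in edgeR, where 0.00492% of all tested genes were called in either direction and 0 in the lower direction. At an unadjusted p under 0.05, 8 nuclear members were lower and 0 higher, against 917 lower and 1191 higher of all 20331 tested genes. DESeq2 called 1 member lower and 0 higher, where it called 0.58% of all genes lower. For 10 of 80 nuclear members all 24 month samples lay below all 18 month samples, against 5.36% of all tested genes, and for 0 of 80 they lay above, against 6.73%. With the replicate number as a block the count stayed at 0 in this comparison, and the medians were -0.18 for nuclear and -0.16 for mitochondrial members. Within same-numbered pairs the nuclear median deviation was lower at 24 months in 3 of 3, at -0.11 against 0.15 at 18 months, -0.25 against -0.17, and -0.46 against -0.20. This pairing was taken from correlations in these same data and is not given by the labels. The last pair uses the summed 18 month sample.

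None of the mitochondrially encoded mRNAs passed the test. The 7 that were tested had a median log2 fold change of -0.25 at 24 months against 2 months, and from -0.41 for mt-Co1 to -0.11 for mt-Nd5. By edgeR 0 were called, where 35% of all tested genes were called in either direction. At an unadjusted p under 0.05 there were 0, against 9504 of all 20331 tested genes. DESeq2 also called 0, where it called 19.9% of all genes lower. The SE of the 7 log2 fold changes ran from 0.18 (mt-Nd6) to 0.24 (mt-Nd1 and mt-Nd2). Not passing therefore does not show that these levels were unchanged. The median of the 7 equalled that of nuclear complex II to 2 decimals. For 2 of 7 the 24 month samples lay below all 2 month samples, against 20.4% of all tested genes. Whether nuclear and mitochondrial members differed in their change was not tested. All 7 values were below 0, but 3 of them (mt-Nd2, mt-Nd5 and mt-Nd6) turned to between 0.07 and 0.09 when samples were scaled by library totals alone, which moves the median of all genes from 0.03 to 0.22, and mt-Nd1, mt-Nd2, mt-Nd5 and mt-Nd6 turned to between 0.01 and 0.27 when the exon length trend was removed. At 18 months against 2 months the median was -0.06, again with 0 called by edgeR, where 11.6% of all tested genes were called in either direction. DESeq2 called 0, where it called 9.54% of all genes lower. At an unadjusted p under 0.05 there were 0, against 6084 of all 20331 tested genes.

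mt-Co1, the catalytic subunit of complex IV (ENSMUSG00000064351, chrMT:5328-6872, forward strand), was the most abundant member of all. It stood at 14470, 10930, 14590 and 10940 CPM at 2 months, 12490, 13750 and 9135 CPM at 18 months, and 10100, 9289 and 9459 CPM at 24 months. The 24 month samples were all below the 2 month samples, but samples within each younger age differed by more than the distance between the 24 and 2 month means, and the adjusted p was 0.169 by edgeR. mt-Cytb, the cytochrome b of complex III, had 5045, 4820 and 5112 CPM at 24 months, against 7065, 5618, 6271 and 5370 CPM at 2 months, also without overlap and without a call (adjusted p = 0.27 by edgeR).

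The complex I subunits of the mitochondrial genome, which form its membrane arm, overlapped between the ages. mt-Nd1 had 5215, 4167 and 4238 CPM at 24 months, against 6440, 4217, 6367 and 4629 CPM at 2 months. mt-Nd2 had 3530, 2562 and 2512 CPM at 24 months, against 3476, 2331, 3949 and 2699 CPM at 2 months. mt-Nd4 had 2865, 2510 and 2383 CPM at 24 months, against 3522, 2702, 3521 and 2597 CPM at 2 months. In each of the 3, 2 month replicates 1 and 3 were high and replicates 2 and 4 stood near the 24 month samples. mt-Nd5 had 3144, 3003 and 3185 CPM at 24 months, against 3515, 2952, 4021 and 2920 CPM at 2 months. mt-Nd6, the only mitochondrial mRNA transcribed from the other strand, had 784, 766 and 835 CPM at 24 months, against 893, 734, 1055 and 788 CPM at 2 months. Its gene overlaps that of mt-Nd5 by a few bases, and how strand was set in counting is not given in the sources used here.

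As a share of all counts the mitochondrial members made up 3.25 ± 0.34% at 2 months, 3.29 ± 0.53% at 18 months and 3.06 ± 0.12% at 24 months (SD, n = 4, 3 and 3), differences within the spread. These counts come almost wholly from the 7 tested members, since the other 6 had between 0 and 25 counts each. The mitochondrial share thus covers only part of its set. The 84 nuclear members made up 0.97 ± 0.03%, 0.81 ± 0.07% and 0.75 ± 0.06% at the same ages, and neither older group overlapped the 2 month samples. The nuclear median log2 fold change minus the mitochondrial median was -0.30 at 24 months and -0.29 at 18 months, each against 2 months. Per sample, the nuclear median deviation minus the mitochondrial median deviation was 0.08, 0.33, 0.05 and 0.24 at 2 months, 0.17, -0.49 and 0.06 at 18 months, and -0.07, -0.04 and -0.22 at 24 months. The 24 month samples all lay below the 2 month samples, while the 18 month samples spanned both, with replicate 2 the lowest of all. The pooled SD of this quantity within an age was 0.21. Without 18 month replicate 2 the difference at 18 months was -0.09.

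The remaining 6 mitochondrial mRNAs, mt-Co2, mt-Co3, mt-Atp6, mt-Atp8, mt-Nd3 and mt-Nd4l, had between 0 and 25 counts each over all samples together, where the 7 tested ones had between 244576 and 3342253. Of the 6, all but mt-Atp8 lie almost wholly in sequence that also occurs in annotated pseudogenes on chromosome 1: 98% to 100% of their 50-base words are found there or in another gene, and the aligned bases are 100% identical. The matching pseudogenes had 44 counts (Gm10222, for mt-Nd4l), 69 (Gm28661, mt-Co2), 89 (Gm10925, mt-Atp6), 90 (Gm28437, mt-Co3) and 1725 (Gm28438, mt-Nd3, which itself had 18). mt-Nd4, with 62.2% of words shared, and mt-Co1, with 51.1%, kept many counts, and mt-Nd1, mt-Cytb and mt-Nd6 share none. mt-Atp8 shares 0% with annotated transcripts of other genes and had 2 counts in all. The search covered annotated transcripts only, so a copy outside them would not be seen. On chromosome 1, the bases between Gm10925 (to 24614651) and Gm28661 (from 24614885) belong to neither pseudogene. Whether they hold a copy of mt-Atp8 was not tested. Whether reads with several positions were dropped was not tested, and levels of these 6 mRNAs were not analysed here.
mt-Co2: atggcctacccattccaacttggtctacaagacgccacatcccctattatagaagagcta
Gm28661: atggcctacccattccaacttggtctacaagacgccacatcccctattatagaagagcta
mt-Co1: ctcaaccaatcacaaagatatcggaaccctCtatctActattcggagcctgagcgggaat
Gm13340: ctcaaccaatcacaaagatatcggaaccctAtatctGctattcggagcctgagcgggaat

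These stretches come from a mitochondrial mRNA with almost no counts and from one with many, and the mt-Co1 stretch was chosen where it differs from its copy. Of all 50-base words of mt-Co1, 27.5% are identical in Gm13340 and 28.7% in Gm29216 on chromosome 1. The first 60 bases of mt-Co2 and of the pseudogene Gm28661 on chromosome 1 are the same, with 0 differing bases. Bases 24 to 83 of mt-Co1 differ from the pseudogene Gm13340 on chromosome 2 at 2 of 60 positions, in capitals, which are C54A and A60G counted from the first base of mt-Co1, with the mt-Co1 base first. Over 1545 aligned bases the pair differed at 37, an identity of 97.61%. All sequences are from the GENCODE M21 transcripts.

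**Figure D3:**
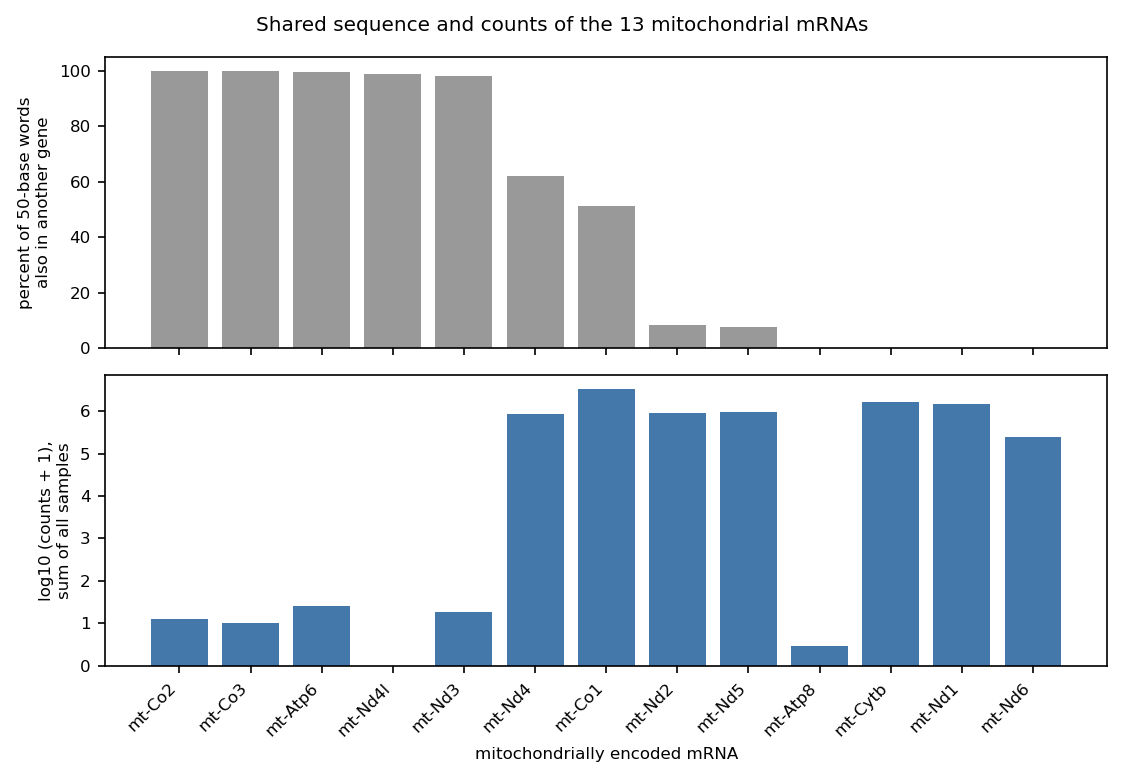
For each of the 13 mitochondrial mRNAs, the upper bars give the percent of 50-base words that also occur in a transcript of another gene, and the lower bars the log10 of counts plus 1 summed over all samples. The 5 mRNAs at 98% to 100% shared have 0 to 25 counts; mt-Atp8, with 0% shared, is the other low one.

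Exon length moved with these differences. Among other expressed protein-coding genes, those with over 500 and up to 1000 bases of exon had a median log2 fold change of -0.46 at 24 months against 2 months, and the median was closer to 0 in each longer class, at -0.04 for genes over 5000 bases. The share of these other genes called lower was 47.6% from 501 to 1000 bases, 46.6% from 1001 to 1500 bases and 17.4% over 5000 bases. Of the nuclear members, 17 of 19, 14 of 18 and 1 of 3 were called lower in the same classes. Most subunits are encoded by short mRNAs. Set against the median of their own length class, the 80 nuclear members had a median difference of -0.24, with 72 of 80 below it. Length here is the union of all annotated exons, which can far exceed a transcript. Ndufb7 has 4522 bases of exon but a longest protein-coding transcript of 623 bases, and Ndufb5 has 4995 and 1079. Such members were set among longer genes, here and in the removal of the trend below. The part of the fall beyond exon length may thus be overstated, which was not tested. When the trend on exon length was removed within each sample, 45 members remained lower at 24 months, all among the 62, where 16.1% of all genes were called lower. Without centring the correction on all genes, which shifts the median of all genes to 0.19, it was 33. The part of RNA quality or library preparation in this trend was not tested.

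**Figure D4:**
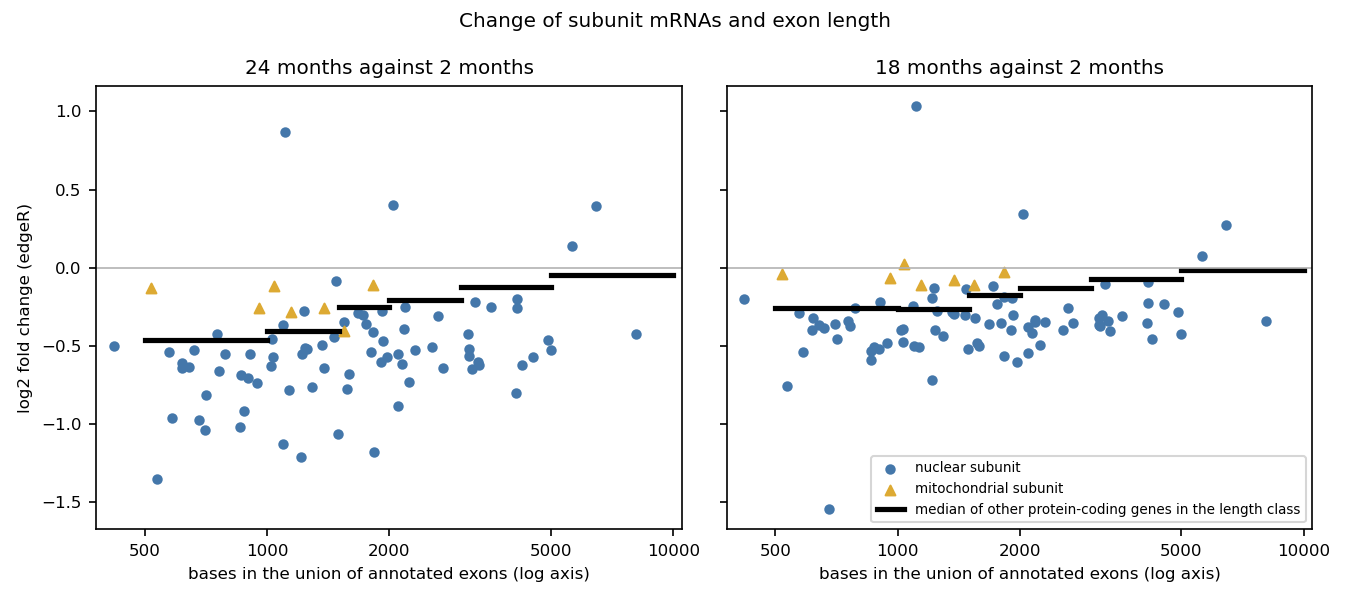
Each point is a tested subunit, placed by the bases in its annotated exons (log axis) and its edgeR log2 fold change; black bars are medians of other expressed protein-coding genes in each length class. At 24 months against 2 months the bars climb from -0.46 for short genes to -0.04 for the longest, and 72 of 80 nuclear subunits lie below the bar of their class.

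Summed levels of cell type markers differed with age and in the samples that stood apart. A list of 11 genes was used to mark luteal and theca cells: genes of steroid synthesis together with hormone and lipoprotein receptors. Their summed level was 48000, 33900, 67600 and 31200 CPM at 2 months, 39300, 24700 and 26800 CPM at 18 months, and 27600, 14300 and 7140 CPM at 24 months. The samples with the highest sums, 2 month replicates 3 and 1, were also those with the highest nuclear subunits, and 24 month replicate 3 was lowest in both. Of the 11 genes, 4 fell and 0 rose at 24 months against 2 months, among them Star, which carries cholesterol into mitochondria, at 1100 ± 471 CPM against 13300 ± 6060 CPM (SD, n = 3 and 4; log2 fold change -3.59). The sum of 10 markers of ciliated oviduct epithelium was 43.8, 123 and 1020 CPM in the 24 month samples, against 38.1 to 51.4 CPM at 2 months, with replicate 3 far above the rest. The sum of 9 lymphocyte markers was 1240 CPM in that replicate, against 4.71 to 17.2 CPM at 2 months. Macrophage markers summed to 575 to 657 CPM at 24 months, against 241 to 308 CPM at 2 months, and 10 of 10 rose. The part of these marker levels in the subunit values was not tested.

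**Figure D5:**
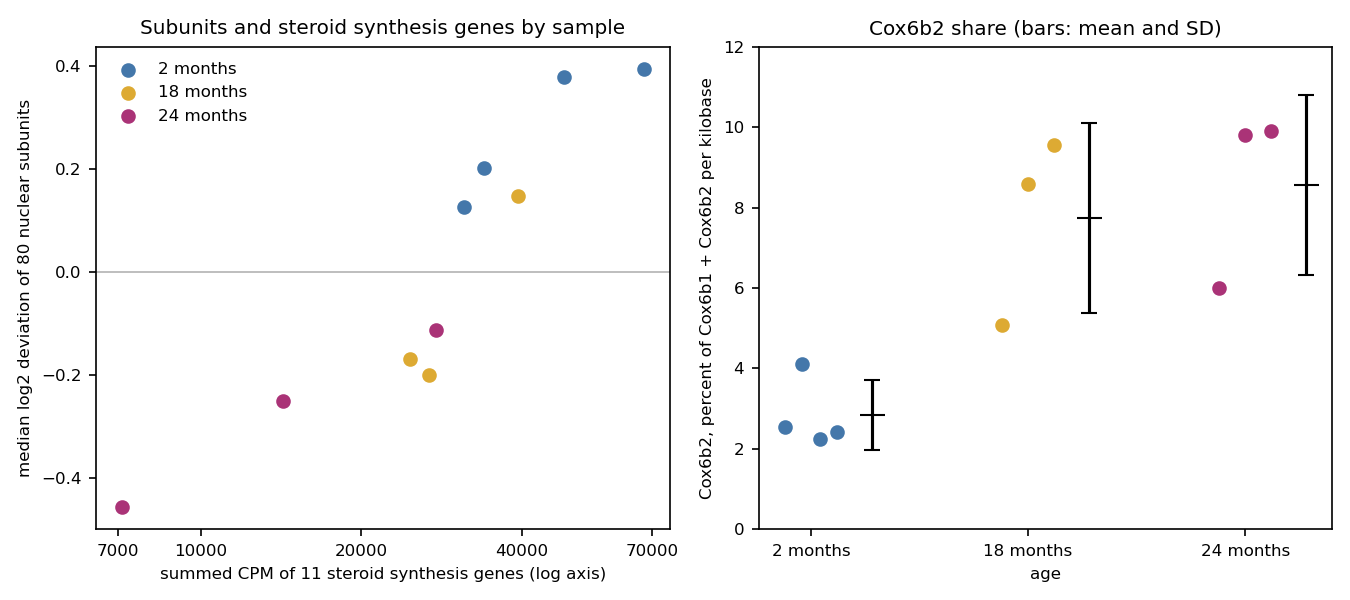
Left, each point is an ovary sample, placed by the summed CPM of 11 steroid synthesis and receptor genes (log axis) and the median log2 deviation of the 80 nuclear subunits from their means. Points run from 24 month replicate 3 (7140 CPM, -0.46) to 2 month replicate 3 (67600 CPM, 0.39). Right, Cox6b2 as a percent of Cox6b1 plus Cox6b2 per kilobase in each sample, with mean and SD; the 18 and 24 month samples all lie above the 2 month samples.

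Genes around the complexes were counted in the same fit, in which 15.8% of all tested genes were lower and 19.2% higher at 24 months against 2 months. The lists below were not matched for exon length. Of other expressed protein-coding genes with 501 to 1000 bases of exon, 47.6% were lower, with a median log2 fold change of -0.46. The part of exon length in the counts of these lists was not tested. At 24 months against 2 months, of 43 tested assembly factors 11 fell and 1 rose, with a median log2 fold change of -0.27. Ndufaf2, which helps to finish complex I, averaged 10.1 ± 1.5 CPM at 24 months and 20.2 ± 1.84 CPM at 2 months (SD, n = 3 and 4; log2 fold change -1.005). Timmdc1, a membrane-arm assembly factor of complex I, had a log2 fold change of -0.67. Of 77 mitochondrial ribosomal proteins, which translate the mitochondrial mRNAs, 47 fell and 0 rose (median -0.46), among them Mrpl34 at -1.01 and Mrpl39 at -0.70. Of 29 genes that express or copy mitochondrial DNA, 8 fell and 2 rose (median -0.21), with Hsd17b10, a part of mitochondrial RNase P, at -0.53.

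Of 21 genes of the citrate cycle and pyruvate dehydrogenase, 12 fell and 1 rose (median -0.44), with Idh3a at -0.66 and Suclg1 at -0.95. Of 18 electron carrier genes 7 fell and 0 rose (median -0.26), including Cycs, the somatic cytochrome c, which averaged 21.6 ± 3.3 CPM at 24 months and 40.5 ± 3.18 CPM at 2 months, and Etfdh at -0.80. Of 25 genes of the inner membrane and protein import 14 fell and 0 rose (median -0.39), with Phb at -0.66 and Phb2 at -0.66. Of 15 regulators known to act on respiratory genes 3 were higher and 2 lower (median -0.09), near the shares of all genes. Pparg fell, with a log2 fold change of -1.08, and Nrip1, a corepressor, rose, with 0.77.

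Of 4 tested uncouplers, Ucp2 fell and Slc25a27 rose. The 11 hypoxia response genes were split, with 4 higher and 4 lower: Ndrg1 had a log2 fold change of 1.16 and Hk2 of -1.47. Counts of fat markers (3 of 5 tested higher, 0 lower) and of skeletal and cardiac muscle markers (1 of 5 higher, 0 lower) stood beside summed levels of at most 100 and 9.12 CPM in any sample. Granulosa markers had 4 of 10 lower and 0 higher, smooth muscle and pericyte markers 2 of 11 higher and 0 lower, and fibroblast markers 4 of 8 higher and 0 lower. All 15 oocyte markers fell, and 8 of 10 ciliated oviduct markers and 6 of 9 lymphocyte markers rose. At 18 months against 2 months, 19 of the 77 mitochondrial ribosomal proteins were lower and 0 higher, with a median log2 fold change of -0.34. Over all tested genes 5.51% were lower and 6.04% higher in that comparison.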

How the data were processed

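Whole-ovary RNA of WT mice was extracted with Trizol, cleaned on a column with DNase digestion and made into stranded mRNA libraries, per the labels' protocols. For 11 libraries the authors deposited raw gene-level counts. Per the submitters' processing notes, FastQC, cutadapt, STAR, HTSeq and the build mm10 were used; their versions, the annotation and how strand was handled were not given in the sources used here. Coordinates are those of the table, and 89 of 97 members have the same ones in GENCODE M21. Samples were grouped by the age in their titles. A count's precision is limited by depth: the smallest sample holds 14124639 counts after 18 month replicates 3 and 4 were summed.

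The counts of the members were tested with edgeR 4.0.16 in R 4.3.3 (filterByExpr, TMM, robust glmQLFit and glmQLFTest, two-sided, all 3 ages in 1 model, 7 residual degrees of freedom, Benjamini-Hochberg adjustment over all 20331 tested genes); the method was tested on simulated data. The common biological coefficient of variation was 0.32. Each fold change's SE was derived from edgeR's F statistic (absolute log2 value over its root). Median deviations use log2 CPM with a prior count of 2, and levels per kilobase use the union of exons in GENCODE M21. Shared 50-base words were searched between M21 transcripts. The length classes hold other protein-coding genes with a mean log2 CPM over 4.

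All members may be named. Every sample's value is given for the mitochondrial members with counts, the 4 called members with the smallest adjusted p per comparison and direction and members of the same rank within their complexes, the most abundant nuclear member of each complex, known isoform pairs and complex II. Of each related list the 2 genes with the smallest adjusted p may be named. Some genes that these rules select are not reported here. The members and lists were chosen with earlier results of these data known, so no count of theirs is independent support for a pattern.

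Whether replicate numbers pair samples was checked on deviations from each age's mean, correlated between samples. Between 24 and 18 months it was 0.398, 0.283 and 0.148 for same numbers, and 0.144 for 24 month replicate 3 with 18 month replicate 2; with 2 months, same numbers gave -0.109 to 0.0741. The numbers were treated as pairing for 24 against 18 months, and the labels do not say what they share.

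Alternatives were DESeq2 1.42.0 and its size factors, library totals, other filters, mitochondrial genes left out of scaling, a replicate block, only the 2 ages compared, all 11 libraries apart and leaving out each sample. A block with only the 2 ages compared and the removal of the exon length trend were added after the data were seen.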

Additional observations from a re-analysis of the deposited data

Results flagged for a closer look

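Samples far from the others of their group were looked for at 2 months, the only age with 4 samples, in the 87 tested members and in the mitochondrial and nuclear shares of counts. Of these 89 sets of values 2 were flagged, where chance flags about 1 in 20. For Ndufb5, an accessory subunit of complex I, 2 month replicate 1 stood at 72.6 CPM, above 66.8 to 67.6 CPM in the other 2 month samples. For Atp5d, the delta subunit of the F1 head of complex V, 2 month replicate 3 stood at 187.9 CPM, above 148.8 to 154.6 CPM in the other 2 month samples. Among all 10 samples, 2 month replicate 3 was the highest for 44 of the 80 nuclear members and 2 month replicate 1 for 26.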

How the results depend on the processing

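The count of members lower at 24 months than at 2 months (62 by edgeR) was 45 with library totals, 57 with no filter on low counts, 66 with DESeq2, 55 with a replicate block in the fit of all ages and 60 with only the 2 ages compared. It was 16 with only the 2 ages compared and a replicate block (4.06% of all genes lower, nuclear median -0.60), 33 with the exon length trend removed without centring, and 36 to 64 when 1 sample was left out. The cause of the drop to 16 was not tested. Members higher at 24 months (2) were 1 with no filter, 1 with the replicate block, 1 with only the 2 ages compared, 0 with the 2 ages and a replicate block, and 0 to 2 with 1 sample left out.

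Members lower at 18 months than at 2 months (6) were 3 with no filter, 12 with a stricter filter, 24 with DESeq2, 3 with the replicate block, 31 with all 11 libraries apart (where the summed pair counts as 2 samples), 0 with the 2 ages and a replicate block, 3 with the length trend removed without centring, and 0 to 17 with 1 sample left out. Members higher at 18 months (1) were 2 with DESeq2, 0 with the 2 ages and a replicate block, 2 with the uncentred length trend, and 0 to 1 with 1 sample left out. Between 24 and 18 months DESeq2 called 1 member lower where edgeR called 0. The nuclear minus mitochondrial median between 24 and 18 months (-0.01) ran from -0.262 to 0.094 with 1 sample left out.

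Scaling by library totals alone turned the log2 fold change at 24 months to 0.076 for mt-Nd2, 0.088 for mt-Nd5, 0.072 for mt-Nd6 and 0.098 for Cox7a2l. Removing the length trend gave 0.012 for mt-Nd1, 0.126 for mt-Nd2, 0.018 for mt-Nd5, 0.27 for mt-Nd6 and 0.09 for Cox7a2l. Without centring it gave 0.152 for mt-Nd1, 0.264 for mt-Nd2, 0.073 for mt-Nd4, 0.161 for mt-Nd5, 0.414 for mt-Nd6, 0.089 for mt-Cytb, 0.014 for Ndufa11, 0.019 for Ndufc2, 0.069 for Sdhd and 0.232 for Cox7a2l. Cox7a2l ran from -0.168 to 0.012 with 1 sample left out, and was above 0 without 24 month replicate 1. Of 1935 alternative values for single subunits, 276 lost a call, 5 gained one, 20 changed sign and 1634 kept direction and call. Leaving out 1 of 3 samples assumes that a group of 2 varies like the others. The shallowest of the 10 samples, at 18 months, had 14124639 counts.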

Other observations

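Per kilobase of exon, the 7 tested mitochondrial mRNAs stood far above nuclear subunit mRNAs in these ovaries. Averaged over the 10 samples, mt-Co1 had 7454 CPM per kilobase, mt-Nd1 5310, mt-Cytb 4915, mt-Nd2 2944 and mt-Nd4 2095. The highest nuclear members were Cox6a1 with 332 CPM per kilobase, Atp5a1 with 244.5, Cox8a with 244 and Atp5b with 225. The highest nuclear members of complexes I, II and III were Ndufb11 with 114.5, Sdha with 95.2 and Uqcr10 with 127 CPM per kilobase. These levels use the union of all annotated exons, which overstates the length of transcripts that use only some of them.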
